A study of Mus musculus with 9 samples.

Results

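The 7 transcripts that mark microglia at rest, P2ry12, Cx3cr1, Gpr34, Tmem119, Fcrls, Slco2b1 and Olfml3, were followed in sorted mouse brain cells labelled as microglia after a transient ischemic attack (TIA). They were chosen by name, and all 7 were among the 757 genes of the deposited table. Microglia are the resident macrophages of the brain. Under the influence of signals such as TGF-beta and CSF1 they keep up a set of surface and secreted products that is known to be lower in many reactive states and in macrophages that enter from the blood. P2ry12 is a receptor for ADP that steers microglial processes toward damaged cells, Cx3cr1 is the receptor for the neuronal ligand fractalkine, and Gpr34 is a receptor for lysophosphatidylserine. Tmem119 is a membrane protein used as a microglial marker, Fcrls is an Fc receptor-like scavenger protein, Slco2b1 is an organic anion transporter and Olfml3 is a secreted matrix protein of the olfactomedin family.

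The 9 samples were cells sorted and labelled as microglia from 3 mice with sham surgery (Sham), 3 mice taken 24 h after TIA (TIA 24h) and 3 mice taken 3 d after TIA (TIA 3d). The TIA was a brief filament occlusion of the middle cerebral artery, and Sham animals had the surgery without it. All 3 groups shared the perfusion, the papain dissociation with actinomycin D in the salt solution and the sort for CD45+ CD11b+ cells negative for the dead-cell dye 7-AAD. Such a gate takes in any CD11b+ leukocyte. The study's legend gives the animals as males, and its methods describe young adults, with an aged cohort for other readouts. Wild-type C57BL6/J mice are named there beside several transgenic lines, without a statement of which animals served this assay. The RNA of each sample was hybridized to barcoded probes that are counted without amplification (nCounter).

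The deposited values are log2 of counts that were divided within each lane by housekeeping probes, and they are called log2 values below. Whole counts were recovered from them and are given beside them. The total over all genes was 6560 to 25582 counts for Sham, 7248 to 10929 for TIA 24h and 29200 to 62883 for TIA 3d, so that depth and time point cannot be told apart for TIA 3d. Microglial markers were measured for 10 of 13 listed (the 7 genes with Sall1, Csf1r and C1qa), and they held 2.36 to 19.0% of the counts for Sham, 1.67 to 4.11% for TIA 24h and 9.94 to 15.8% for TIA 3d. Markers of oligodendrocytes, the myelin-forming cells, held more counts than these in TIA 24h replicates 1 to 3 (6.70, 3.51 and 6.61% beside 4.11, 3.07 and 1.67%), which goes against the label of these lanes, and less in the other 6 lanes. In Sham replicate 3 and TIA 24h replicate 3 the homeostatic genes stood near the level of genes that microglia should lack. There, 27 probes for neuronal and leukocyte genes reached 21 and 15 counts, and 1 of the 7 homeostatic genes, Cx3cr1, exceeded that in each of these lanes. In TIA 24h replicate 2 it was 6 of 7, all but Slco2b1, and in the other 6 lanes 7 of 7. The limma tests, the ratios between the 7 genes, their correlation and the counts of genes called per list are therefore also given without these 2 lanes.

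For orientation in the genome, the DNA around the start sites is shown for 4 of the genes, chosen because they include the pair of abundant receptors and the 3 windows with a match to an ETS motif of the kind bound by PU.1, the macrophage lineage factor. RefSeq windows on GRCm38.p6, cut to the 250 bases before and 30 after the start, were found for 5 of the 7 genes, and 7 windows in all. Tmem119 and Gpr34 had no window in the set that was searched. P2ry12 lies at chr3:59262956-59263235, Fcrls at chr3:87263495-87263774, Slco2b1 at chr7:99711311-99711590 and Cx3cr1 at chr9:120068267-120068546, each on the minus strand. The windows read 5′ to 3′ on the gene's strand, and capitals mark AGGAAGT on either strand.
P2ry12: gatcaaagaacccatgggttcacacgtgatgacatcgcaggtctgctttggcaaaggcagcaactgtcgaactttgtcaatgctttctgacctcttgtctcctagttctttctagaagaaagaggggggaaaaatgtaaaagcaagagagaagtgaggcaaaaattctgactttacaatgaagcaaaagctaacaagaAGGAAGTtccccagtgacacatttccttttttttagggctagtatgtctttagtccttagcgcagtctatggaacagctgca
Fcrls: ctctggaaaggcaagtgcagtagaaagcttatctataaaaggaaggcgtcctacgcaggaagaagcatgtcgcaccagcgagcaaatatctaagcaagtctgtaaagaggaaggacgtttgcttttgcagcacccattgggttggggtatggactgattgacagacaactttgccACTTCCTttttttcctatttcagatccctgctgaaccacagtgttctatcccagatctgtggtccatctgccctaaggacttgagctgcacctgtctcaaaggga
Slco2b1: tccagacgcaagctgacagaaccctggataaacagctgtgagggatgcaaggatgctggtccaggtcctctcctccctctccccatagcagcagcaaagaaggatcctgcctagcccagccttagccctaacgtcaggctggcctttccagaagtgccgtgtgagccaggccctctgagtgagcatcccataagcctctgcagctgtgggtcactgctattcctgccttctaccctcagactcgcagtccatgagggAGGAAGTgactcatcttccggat
Cx3cr1: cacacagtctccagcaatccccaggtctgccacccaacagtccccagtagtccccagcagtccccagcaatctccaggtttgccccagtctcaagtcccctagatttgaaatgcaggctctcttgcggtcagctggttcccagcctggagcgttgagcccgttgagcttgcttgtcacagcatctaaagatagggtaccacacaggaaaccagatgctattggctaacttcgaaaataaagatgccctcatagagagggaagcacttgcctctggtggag

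The 7-base word AGGAAGT began 52 bases before the start in P2ry12 and 75 bases before it in Fcrls (there as its reverse complement). In Slco2b1 it began at base 8 of the transcript, and the other 2 windows of Slco2b1 and the window of Olfml3 lacked it, as did that of Cx3cr1. Of the 32851 windows searched, which did not cover every chromosome, 8.65% held the word. Of the 786 among them that belong to measured genes, 12.7% held it. The SMAD word CAGAC was searched on both strands because TGF-beta acts through SMAD factors. It was in 5 of the 7 windows, which belong to 4 of the 5 genes. Of all windows searched 46.8% held it, as did 43.3% of those of measured genes. These are matches of letters and were not set against any value of expression.

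Among the receptors, Cx3cr1 gave the highest count of the 7 genes in 9 of 9 lanes. It had 1118, 296 and 29 counts in Sham replicates 1 to 3, 96, 45 and 20 for TIA 24h and 1355, 973 and 644 for TIA 3d. As log2 values these were 10.07, 8.34 and 5.83 for Sham, 7.24, 6.38 and 5.24 for TIA 24h and 9.57, 9.70 and 8.46 for TIA 3d. Sham therefore covered nearly the whole range of the other groups, while TIA 3d lay above TIA 24h in every sample. The transcript ranked first of 757 genes in Sham replicate 1 and 40th in TIA 24h replicate 3.

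Gpr34, the lipid receptor, followed nearly the same order of samples at a lower level. Its counts were 439, 123 and 14 for Sham, 31, 23 and 6 for TIA 24h and 399, 364 and 238 for TIA 3d. Its log2 values were 8.72, 7.07 and 4.78 for Sham, 5.61, 5.41 and 3.51 for TIA 24h, and 7.81, 8.28 and 7.03 for TIA 3d. The 6 counts in TIA 24h replicate 3 (95% Poisson interval 2.20 to 13.1) were the lowest of Gpr34 and left it 482nd of 757 genes there, against 9th in Sham replicate 1. P2ry12 had log2 values of 9.47, 7.75 and 4.67 for Sham, 5.90, 5.64 and 4.51 for TIA 24h, and 8.52, 8.99 and 7.91 for TIA 3d. With an SD of 1.89 over the 9 lanes it was the most variable of the 7 genes, and its 3 Sham values enclosed all the others but 1.

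Of the 2 surface markers that are not G protein-coupled receptors, Tmem119 had 369, 99 and 10 counts for Sham, 26, 15 and 9 for TIA 24h and 605, 332 and 361 for TIA 3d. Fcrls had 297, 86 and 12 counts for Sham, 34, 18 and 13 for TIA 24h and 229, 293 and 489 for TIA 3d. The count of Fcrls was thus highest in TIA 3d replicate 3, the deepest lane, where P2ry12, Cx3cr1 and Gpr34 had their lowest TIA 3d counts. Its log2 value was highest in Sham replicate 1 (8.15), above TIA 3d replicate 3 (8.07). The log2 values of Fcrls were 8.15, 6.55 and 4.56 for Sham, 5.74, 5.06 and 4.62 for TIA 24h, and 7.01, 7.97 and 8.07 for TIA 3d. Those of Tmem119 were 8.47, 6.76 and 4.30, then 5.36, 4.79 and 4.09, then 8.41, 8.15 and 7.63 in the same order. In both genes Sham overlapped TIA 24h and TIA 3d, and TIA 24h lay below TIA 3d throughout.

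The transporter Slco2b1 was the lowest of the 7 genes in 8 of 9 lanes. It had 171, 41 and 6 counts for Sham, 19, 13 and 5 for TIA 24h and 341, 171 and 201 for TIA 3d. Its log2 values were 7.36, 5.48 and 3.56 for Sham, 4.90, 4.59 and 3.24 for TIA 24h, and 7.58, 7.19 and 6.78 for TIA 3d, so that only 1 TIA 3d sample lay above every Sham sample. The secreted Olfml3 had 264, 84 and 18 counts for Sham, 34, 20 and 12 for TIA 24h and 159, 230 and 303 for TIA 3d. It was the lowest gene in the remaining lane, TIA 3d replicate 1, and the second highest in Sham replicate 3. Its log2 values, 7.98, 6.52 and 5.14 for Sham, 5.74, 5.21 and 4.51 for TIA 24h and 6.48, 7.62 and 7.38 for TIA 3d, spread least of the 7 genes (SD 1.22 over 9 lanes). Probe counts carry no correction for how well each probe captures its target, so these orders are of counts and not of molecules per cell.

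**Figure D1:**
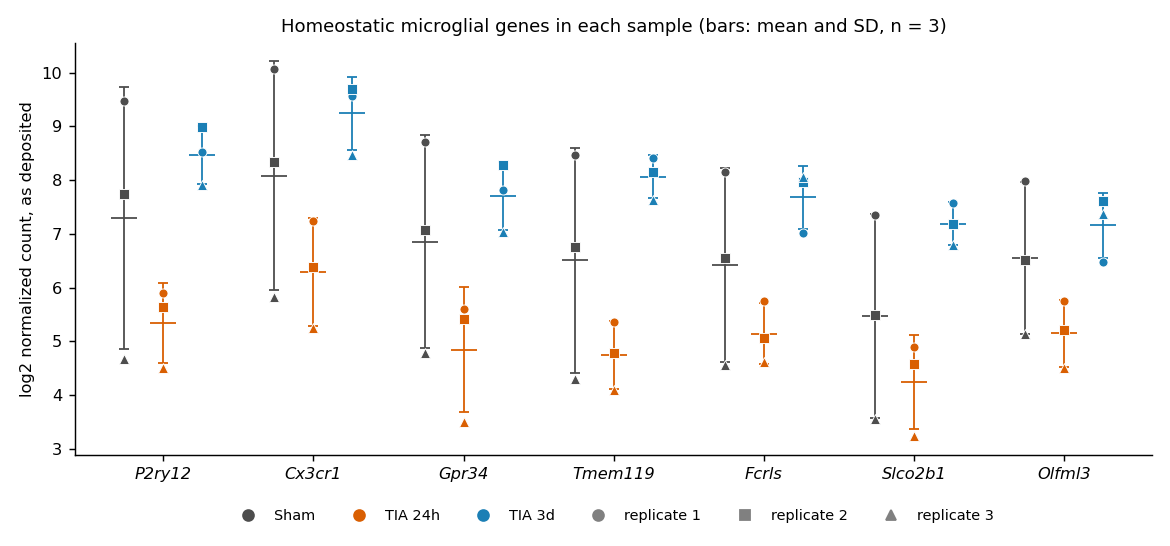
Deposited log2 normalized counts of the 7 genes (vertical axis) in the 9 samples, colored by group with a symbol per replicate; horizontal lines are group means and bars are SD (n = 3). For every gene the TIA 3d samples lie above the TIA 24h samples, and the Sham samples are spread over both.

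Between the time points all 7 genes rose, with TIA 3d above TIA 24h. In limma the difference on the log2 scale was 3.31 for Tmem119 (SE 0.79, adjusted p = 0.0232), 3.12 for P2ry12 (SE 0.90, adjusted p = 0.0379), 2.96 for Cx3cr1 (SE 0.86, adjusted p = 0.0379) and 2.94 for Slco2b1 (SE 0.76, adjusted p = 0.0304). It was 2.86 for Gpr34 (SE 0.83, adjusted p = 0.0379), 2.54 for Fcrls (SE 0.72, adjusted p = 0.0373) and 2.01 for Olfml3 (SE 0.64, adjusted p = 0.0467). Since the Sham samples cancel, the same contrast compares both changes from Sham with each other. Of all 757 genes, 11.6% were called higher in this comparison and 19.2% were called in either direction, while the median difference was 2.94 for the 7 genes and -0.25 for all genes. The groups of all 7 genes did not overlap, and neither did those of 48.3% of all genes.

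These calls depended on single samples. With any of TIA 24h replicates 2 and 3 and TIA 3d replicates 1 and 3 left out, 0 of the 7 genes passed, with adjusted p values up to 0.142, and neither did any of all 757 genes. There were 2 of 7 (114 of all 757) without TIA 3d replicate 2, 4 (90) without Sham replicate 2 and 5 (85) without TIA 24h replicate 1. The differences themselves stayed between 1.68 and 3.62 in every one of these fits. Without both Sham replicate 3 and TIA 24h replicate 3, 6 of 7 passed, as did 129 of all genes, and Olfml3 stood at 1.68 (adjusted p = 0.0528). With the log2 total of the lane as a covariate all 7 differences changed sign, to between -0.81 for P2ry12 and -0.37 for Gpr34, and 0 passed, of the 7 as of all 757 genes. After quantile normalization the differences were 0.37 (Cx3cr1) to 2.04 (Slco2b1) and 0 of 7 passed, beside 7 of all genes. In voom 0 of 7 passed beside 97 of all genes, and in an ordinary linear model 0 of either, with all 7 still higher at TIA 3d in both.

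Against Sham none of the 7 genes passed at either time point. At TIA 24h all 7 had lower means than Sham, with log2 differences from -2.01 (Gpr34, SE 0.83) to -1.22 (Slco2b1, SE 0.76) and adjusted p values of 0.647 to 0.722 in limma. The groups overlapped in all 7 genes, whereas they did not overlap in 9.78% of all genes, and 0% of all genes were called. At an unadjusted p under 0.05 there were 4 of the 7 genes and 57 of all 757. The spread of the Sham lanes was the larger part of the error. P2ry12 was at 7.30 ± 2.43 (SD, n = 3) in Sham and at 5.35 ± 0.74 for TIA 24h, and Olfml3, with the tightest Sham group, at 6.55 ± 1.42 and 5.15 ± 0.62. Leaving out Sham replicate 3 took the P2ry12 difference to -3.26 and leaving out Sham replicate 1 took it to -0.86, without a call in either case. Without Sham replicate 3 and TIA 24h replicate 3 together, the 7 differences were -2.84 (P2ry12) to -1.68 (Slco2b1), with adjusted p values of 0.168 to 0.268 in limma.

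At TIA 3d all 7 means were above Sham, by 1.72 for Slco2b1 (SE 0.76, adjusted p = 0.238), 1.56 for Tmem119 (adjusted p = 0.280) and 1.26 for Fcrls (adjusted p = 0.311), and by 0.61 (Olfml3, adjusted p = 0.583) to 1.17 (P2ry12 and Cx3cr1, adjusted p = 0.446 and 0.427) for the other 4. Here too the groups overlapped in all 7 genes, against 24.2% of all genes that did not overlap, and 0% of all genes were called. At an unadjusted p under 0.05 there were 1 of the 7 genes and 148 of all. This comparison turned on the Sham lanes. Without Sham replicate 1, Slco2b1 (2.66, adjusted p = 0.0180), Tmem119 (2.54, adjusted p = 0.0263) and Fcrls (2.12, adjusted p = 0.0402) passed, beside 84 of all 757 genes. Without Sham replicate 3, P2ry12, Gpr34 and Olfml3 were slightly below Sham, at -0.14, -0.19 and -0.094, and the same values were found without TIA 24h replicate 3 as well. Over the 3 groups together, the moderated F test gave adjusted p values of 0.0573 (Tmem119) to 0.107 (Olfml3), so that 0 of 7 passed, as did 0% of all genes. All 7 had an unadjusted p under 0.05 in that test, as had 235 of all genes, and all 7 passed it without Sham replicate 1 (136 of all genes) or without Sham replicate 3 (126), and 2 did without Sham replicate 3 and TIA 24h replicate 3 together (28 of all).

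The 7 genes together held 13.3%, 6.22% and 1.55% of all counts for Sham, 2.54%, 2.03% and 1.06% for TIA 24h and 7.26%, 10.1% and 4.25% for TIA 3d. Their 95% Wilson intervals, which cover counting error only, were at their widest 12.9 to 13.7% in Sham replicate 1, so that the gap between Sham replicates was far beyond counting error. A share of the lane does not depend on the housekeeping scaling. The group means were 7.02 ± 5.91% for Sham, 1.88 ± 0.75% for TIA 24h and 7.21 ± 2.94% for TIA 3d (SD, n = 3), with TIA 24h below TIA 3d in every sample and Sham across both. In these bulk samples a lower share of microglial RNA in the sorted cells and less of these transcripts per microglial cell cannot be told apart.

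Genes that other myeloid cells share with microglia were set beside them for that reason. Of 18 listed genes 12 were measured, namely Ptprc, Itgam, Cd68, Tyrobp, Fcer1g, Fcgr3, C1qa, C1qb, C1qc, Ctss, Cd14 and Trem2. One of them, C1qa, is also on the list of microglial markers. Their own levels were not constant, with 10 of 12 means below Sham at TIA 24h (median log2 difference -0.77) and 12 of 12 above it at TIA 3d (median 2.14), of which 0 were called. A value relative to them therefore moves with them as well as with the gene. They held 15.2%, 7.19% and 2.52% of the counts in Sham, 5.71%, 3.77% and 3.31% for TIA 24h and 19.9%, 15.8% and 21.2% for TIA 3d. For each count of these 12 genes there were 0.876, 0.865 and 0.618 counts of the 7 homeostatic genes in Sham, 0.446, 0.538 and 0.321 for TIA 24h and 0.364, 0.640 and 0.201 for TIA 3d. All 3 TIA 24h samples were below all Sham samples on this ratio, and at TIA 3d only replicate 2 rose above the lowest Sham sample. That lowest sample, Sham replicate 3, had 4 to 32 counts of the 12 genes. Only C1qa, C1qb and C1qc, with 22, 24 and 32 counts, exceeded the 21 counts reached there by neuronal and leukocyte genes.

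**Figure D2:**
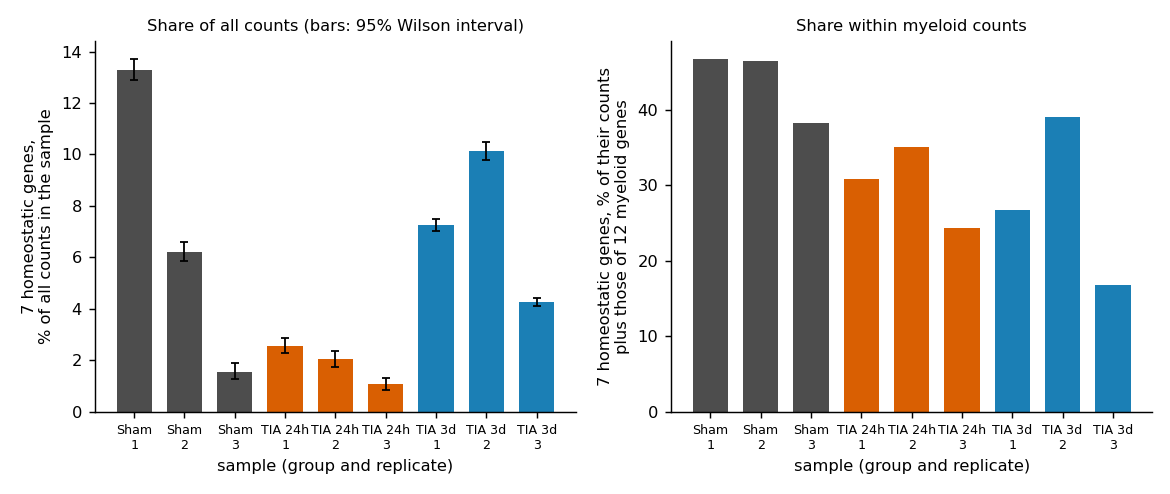
Left, summed counts of the 7 genes as a percentage of all counts in each sample, with 95% Wilson intervals; right, the same sum as a percentage of the 7 genes plus 12 other myeloid genes. Sham replicates 1 to 3 range from 13.3% to 1.55% on the left, and on the right from 46.7% to 38.2% against 24.3% to 35.0% for TIA 24h.

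Each gene was then expressed relative to the mean log2 value of those 12 genes in the same sample, which took away most of the spread of Sham for Olfml3 and left more of it for P2ry12. Olfml3 was at 0.48, 0.42 and 0.62 for Sham, -0.19, -0.03 and -0.52 for TIA 24h and -1.53, 0.03 and -1.02 for TIA 3d. P2ry12 was at 1.97, 1.65 and 0.15 for Sham, -0.03, 0.40 and -0.52 for TIA 24h and 0.50, 1.40 and -0.49 for TIA 3d. Olfml3 was therefore below Sham in all 6 TIA samples, whereas the TIA samples of P2ry12 overlapped Sham replicate 3. In that lane most of the 12 genes did not exceed the neuronal and leukocyte level, as given above.

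On this scale the TIA 24h mean was below Sham for all 7 genes, by between -1.37 (Gpr34) and -0.58 (Slco2b1), and in 5 of them (Cx3cr1, Gpr34, Tmem119, Fcrls and Olfml3) the groups did not overlap, as in 5.94% of all genes. The median difference was -1.12 for the 7 genes and 0.79 for all genes. At TIA 3d all 7 means were again below Sham, by between -1.35 (Olfml3) and -0.24 (Slco2b1), but only Olfml3 did not overlap, against 38.3% of all genes, and the median was -0.79 beside -1.97 for all genes. Between TIA 3d and TIA 24h the differences ran from -0.59 (Olfml3) to 0.71 (Tmem119), and 0 of 7 genes were apart against 88.5% of all genes.

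In limma 0 of the 7 genes passed on this scale in any comparison, where the adjusted p was 0.727 to 0.739 at TIA 24h against Sham, 0.123 to 0.768 at TIA 3d against Sham and 0.375 to 0.936 between the time points. The share of all genes called was 0% in both comparisons with Sham and 75.4% between the time points. None of the 7 had an unadjusted p under 0.05 in any of the 3 comparisons, beside 23 of all 757 genes for TIA 24h and 392 for TIA 3d, each compared with Sham, and 598 between the time points, and none passed without Sham replicate 3 and TIA 24h replicate 3. Without Sham replicate 3 alone, P2ry12 passed at TIA 24h against Sham (-1.86, adjusted p = 0.0456), beside 268 of all 757 genes.

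**Figure D3:**
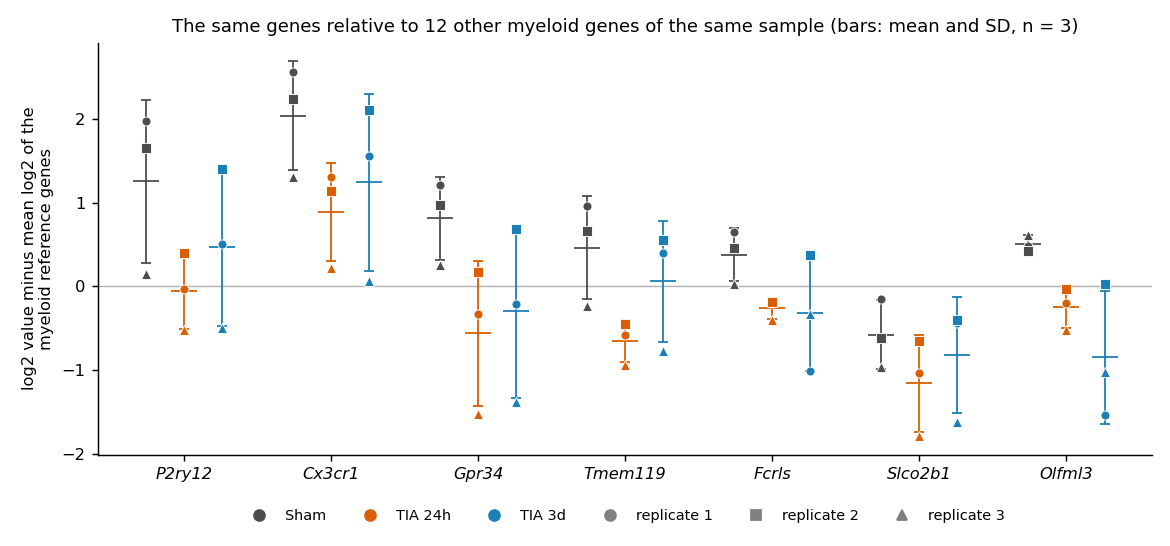
Log2 value of each of the 7 genes minus the mean log2 value of 12 myeloid reference genes of the same sample (vertical axis), by group and replicate, with group mean and SD (n = 3). The TIA 24h samples lie below all Sham samples for Cx3cr1, Gpr34, Tmem119, Fcrls and Olfml3, and the TIA 3d samples of most genes spread over both groups.

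Compared with each other within a sample, Cx3cr1 kept the most constant ratios, to the other 2 receptors. The log2 ratio of P2ry12 to Cx3cr1 stayed between -1.34 and -0.56 over the 9 lanes (SD 0.282) and that of Cx3cr1 to Gpr34 between 0.97 and 1.76 (SD 0.281), although single genes had SDs of 1.22 to 1.89. The least constant ratios were those of P2ry12 and Tmem119 to Olfml3 (SD 0.819 and 0.818). In Sham replicates 1 and 2, with 1118 and 296 counts of Cx3cr1, P2ry12 stood at the same ratio to Cx3cr1, -0.59 in both. Sham replicate 3, with 13 counts of P2ry12, stood at -1.16.

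The log2 ratio of the receptor Gpr34 to Slco2b1 was lower in every TIA sample than in any Sham sample. Of all gene pairs, 9.45% did not overlap between TIA 24h and Sham and 21.8% between TIA 3d and Sham. The log2 ratio was 1.36, 1.58 and 1.22 for Sham, 0.71, 0.82 and 0.26 for TIA 24h and 0.23, 1.09 and 0.24 for TIA 3d. For TIA 24h it rests on 31, 23 and 6 counts of Gpr34 beside 19, 13 and 5 of Slco2b1. The neuronal and leukocyte probes had medians of 8, 8 and 7 counts in those lanes. No background was subtracted, and its part in these ratios was not tested. The means differed by -0.79 for TIA 24h and -0.87 for TIA 3d from the shared Sham samples. At TIA 3d Gpr34 was also lower relative to Tmem119 (-0.71) and to Cx3cr1, whose ratio over Gpr34 was higher by 0.32, without overlap.

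Olfml3 was low relative to several of the other genes at TIA 3d. Slco2b1 over Olfml3 was -0.63, -1.03 and -1.58 for Sham, -0.84, -0.62 and -1.26 for TIA 24h and 1.10, -0.43 and -0.59 for TIA 3d, and Fcrls over Olfml3 was 0.17, 0.03 and -0.58, then 0.00, -0.15 and 0.12, then 0.53, 0.35 and 0.69. Both ratios were higher in all 3 TIA 3d samples than in any other sample. For Slco2b1 the margin was narrow, with -0.592 in TIA 3d replicate 3 beside -0.621 in TIA 24h replicate 2. The latter rests on 13 counts of Slco2b1 and 20 of Olfml3. Of all gene pairs, 21.8% did not overlap between TIA 3d and Sham and 44.5% between the time points. P2ry12 and Tmem119 relative to Olfml3 also stood higher in the TIA 3d than in the TIA 24h samples, by 1.12 and 1.31, while Sham overlapped both. In TIA 3d replicate 1 Olfml3 had 159 counts beside 341 of Slco2b1, and in no other sample was Slco2b1 above Olfml3.

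In all, 1 of the 21 ratios did not overlap between TIA 24h and Sham, where 9.45% of all 286146 gene pairs did not. There were 5 of 21 at TIA 3d against Sham, where the share of all pairs was 21.8%, and 4 of 21 between the time points, where it was 44.5%. With 9 samples the counts of the 7 genes were thus near or below those shares. Without Sham replicate 3 and TIA 24h replicate 3 they were 16 of 21 at TIA 24h against Sham, beside 41.1% of all pairs, 10 at TIA 3d against Sham, beside 28.1%, and 8 between the time points, beside 52.0%. Leaving out Sham replicate 3 alone gave 14 of 21 at TIA 24h against Sham, beside 32.3% of all pairs. Every one of the 10 differences over 9 samples had an exact permutation p of 0.1, the smallest that 3 samples against 3 allow, among 63 tests. The ratios of the samples with under 20 counts per gene rest on few molecules, and Sham replicate 3 and TIA 24h replicate 3 are among them.

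**Figure D4:**
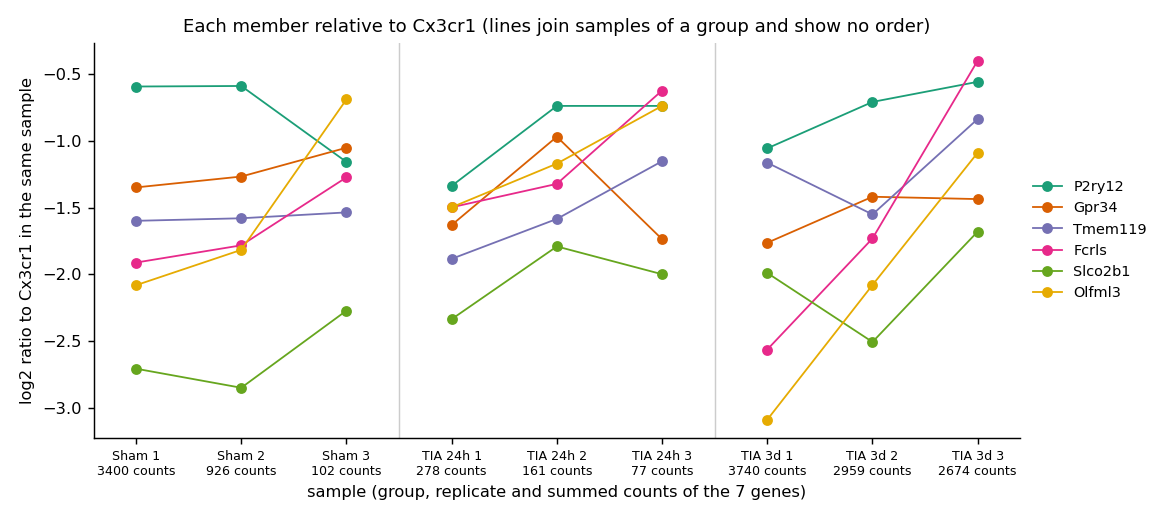
Log2 ratio of 6 genes to Cx3cr1 in the same sample (vertical axis), with the summed counts of the 7 genes under each sample; lines join samples of a group for legibility and carry no order. P2ry12 is nearest to Cx3cr1 in 6 of the 9 samples, and the order of Fcrls, Olfml3 and Gpr34 changes between samples.

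Over the 9 samples the pairwise Pearson r among the 7 genes had a median of 0.955 (0.909 for Slco2b1 with Olfml3 to 0.990 for P2ry12 with Cx3cr1), beside 0.03 over all pairs of genes. Relative to the 12 myeloid genes the median was 0.867 (lowest 0.324) beside 0.878 over all pairs. On that scale the same mean is subtracted from every gene of a lane, which raises the r of all pairs. The comparison therefore cannot show whether the 7 genes stand out. After quantile normalization the median was 0.872 (lowest 0.507) beside -0.0023 over all pairs. Without the 2 shallow lanes the median was 0.917 over 7 samples beside 0.033 over all pairs. The genes of a lane share its depth, and the r of each gene with the log2 lane total was 0.787 (Gpr34) to 0.912 (Slco2b1). On the scale relative to the 12 myeloid genes the r with the total was between -0.58 (Olfml3) and 0.35 (Tmem119).

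The genes whose log2 values were most like the mean of the 7 were Plxdc2 (r = 0.997), Csf1r (0.977), Itgb5 (0.975), Itgam (0.973) and Tgfbr1 (0.968), all over 9 samples. Plxdc2, a membrane protein with a plexin domain, had 209, 72 and 16 counts for Sham, 35, 22 and 14 for TIA 24h and 242, 180 and 211 for TIA 3d. Csf1r, the receptor on which microglia depend for survival, had 750, 188 and 21 counts for Sham, 60, 38 and 10 for TIA 24h and 1517, 805 and 1451 for TIA 3d. The log2 values of Csf1r, 9.49, 7.68 and 5.37 for Sham and 9.73, 9.42 and 9.64 for TIA 3d, overlapped between these groups. Tgfbr1, a subunit of the TGF-beta receptor, had 402, 117 and 21 counts for Sham, 55, 41 and 15 for TIA 24h and 997, 405 and 578 for TIA 3d.

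Other genes of the homeostatic program were measured for 8 of 18 listed, and 4 of them were called higher with the later time point and 0 lower. They include Lgmn, a lysosomal protease (3.87, SE 1.01, adjusted p = 0.0304), Sall1, a transcription factor of microglial identity (3.03, SE 0.87, adjusted p = 0.0379), and Cd33, an inhibitory sialic acid receptor (1.87, SE 0.43, adjusted p = 0.0229). Sall1 had 187, 70 and 10 counts for Sham, 27, 13 and 2 for TIA 24h and 274, 195 and 151 for TIA 3d, so that Sham overlapped both groups. Of the regulators of microglial identity 7 of 12 were measured and 6 were called higher, among them Csf1r (3.95, SE 0.84, adjusted p = 0.0229), Tgfbr1 (2.79, SE 0.70, adjusted p = 0.0254) and the transcription factor Irf8 (1.85, SE 0.42, adjusted p = 0.0229). In both lists 0 genes were called against Sham, and without the 2 shallow lanes 3 of 8 and 6 of 7 were called between the time points. Relative to the 12 myeloid genes, 0 of the 8 were called higher and 1 lower between the time points (median -0.93, against 1.68 on the deposited scale), and 0 of the 7 regulators were called (median -0.12, against 2.48). The ligand of Cx3cr1, Cx3cl1, went the other way between the time points (-1.69, SE 0.45, adjusted p = 0.0304), with overlapping counts of 9 to 15 for TIA 24h and 6 to 14 for TIA 3d, and the ATP-gated channel P2rx7 was at 1.09 (adjusted p = 0.0764).

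Other groups of genes differed along with the homeostatic genes between the time points. Of the 12 myeloid reference genes 9 were called higher in that comparison, as were 5 of 5 measured immediate early genes, of which Egr1 was at 2.75 (SE 0.56, adjusted p = 0.0229). These last are known to be induced by dissociation. They held 0.488 to 2.04% of the counts in Sham, 0.770 to 1.21% for TIA 24h and 2.60 to 3.32% for TIA 3d. Of 17 measured oligodendrocyte markers 9 were called lower, such as the myelin gene regulator Myrf (-2.94, SE 0.57) and the myelin component Mobp (-2.35, SE 0.46), each at an adjusted p of 0.0229. As a list they held 0.864 to 7.03% of counts in Sham, 3.51 to 6.70% for TIA 24h and 0.455 to 0.832% for TIA 3d, with single markers down to 1 count and none at 0. Of 5 astrocyte markers 1 was called lower (S100b, -2.43, SE 0.44, adjusted p = 0.0229), as were 2 of 7 endothelial markers (Flt1, a VEGF receptor, -1.77, and Cldn5, a tight junction protein, -1.92, both with an adjusted p of 0.0304) and 1 of 13 neuronal markers (Gria2, a glutamate receptor subunit, -2.13, adjusted p = 0.0379). No gene of these 4 lists was called higher. These calls rest on few counts, which were 10, 9 and 7 of Flt1, 15, 9 and 12 of Cldn5, 11, 12 and 9 of Gria2 and 10, 9 and 8 of S100b for TIA 24h. For TIA 3d they were 11, 6 and 5 of Flt1, 5, 9 and 14 of Cldn5, 3, 9 and 11 of Gria2 and 4, 4 and 6 of S100b, so that the counts overlapped in all but S100b. Myrf had 37, 11 and 19 and then 8, 9 and 5 counts, and Mobp had 71, 52 and 37 and then 20, 31 and 35. The log2 values are the log2 of those counts times a lane factor of 1.58 to 1.89 for TIA 24h and 0.548 to 0.853 for TIA 3d. Summed over the lists, endothelial markers had 54 to 79 counts for TIA 24h and 69 to 84 for TIA 3d, and neuronal markers, which also served above as the level of genes that microglia should lack, had 95 to 102 and 126 to 153. Without the 2 shallow lanes the counts were 10 of 12 myeloid and 4 of 5 immediate early genes higher, and 7 oligodendrocyte, 1 astrocyte, 3 endothelial and 2 neuronal markers lower. In that fit 129 of all 757 genes were called in either direction. Over the 9 samples 11.6% of all genes were called higher and 19.2% in either direction. Relative to the 12 myeloid genes, all 17 oligodendrocyte, 5 astrocyte, 7 endothelial, 13 neuronal and 14 leukocyte markers were called lower, where 75.4% of all genes were called, and 0 of the 5 immediate early genes were called.

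At TIA 24h against Sham, where the 7 homeostatic genes had lower means, the means of 17 of 17 oligodendrocyte, 5 of 5 astrocyte, 6 of 7 endothelial and 10 of 13 neuronal markers were higher, and 0 of them were called. The summed counts overlapped between these groups in all 4 lists, with 56 to 82 for Sham and 54 to 79 for TIA 24h in endothelium, 82 to 145 and 95 to 102 in neurons, 38 to 152 and 50 to 129 in astrocytes, and 151 to 1048 and 278 to 732 in oligodendrocytes. At TIA 3d against Sham the means were lower for 16 of 17, 4 of 5, 7 of 7 and 12 of 13, again with 0 called. By lane, oligodendrocyte markers held 0.864, 7.03 and 2.30% of counts for Sham, 6.70, 3.51 and 6.61% for TIA 24h and 0.794, 0.832 and 0.455% for TIA 3d. The 4 lanes with under 1% of oligodendrocyte counts, Sham replicate 1 and those of TIA 3d, had 4.25 to 13.3% of homeostatic counts, and the other 5 lanes had 1.06 to 6.22%. Of 14 measured blood leukocyte markers 2 were called lower between the time points, TIA 3d being the lower, and 0 higher. This was beside 19.2% of all genes called in either direction, and without the 2 shallow lanes 0 of these markers were called. The summed counts of the 14 markers were 102 to 124 for Sham, 101 to 116 for TIA 24h and 134 to 171 for TIA 3d. For border macrophages 1 of 9 markers was measured, Cd163, with 14 to 19 counts for Sham, 11 to 19 for TIA 24h and 24 to 33 for TIA 3d (-0.55 between the time points, adjusted p = 0.358). The part of these groups of genes in the differences of the 7 homeostatic genes was not tested.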

How the data were processed

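The deposited table holds 757 genes in 9 samples as log2 of normalized counts. Per the study's methods, the authors used ROSALIND to scale each lane to the geometric mean of its housekeeping probes, which geNorm had selected. Groups were read from the sample titles. Back on the linear scale, the values of a lane were multiples of 1 step (100% of values, tolerance 0.01 counts), from which the whole counts were recovered. No count was 0, and the lowest was 1. Control probes were not used here.

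The main tests ran on the deposited log2 values of all 9 samples, and a second set on those values minus the mean of 12 myeloid genes of the sample, with the moderated statistics of limma 3.58.1 in R 4.3.3 (7.23 prior degrees of freedom), two-sided for the contrasts, with Benjamini-Hochberg adjustment over 757 genes and a threshold of 0.05. Ratios within a sample had a two-sided exact permutation test each, in scipy 1.17.1. Samples are separate animals. No batch is given in the labels. The alternatives were other scalings, a filter on low values, log2(value + 16), the replicate number as a block, the lane total as a covariate, other variance models and leaving out samples. The scripts were tested on simulated data.

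The 7 genes and all lists were chosen with earlier results of these data known. Beyond the 7, the text names the 5 genes most correlated with their mean, up to 3 genes per list with the smallest p between TIA 3d and TIA 24h, and Cx3cl1 and P2rx7. Sall1 counts and list members named for what they are were given in addition.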

Additional observations from a re-analysis of the deposited data

Results flagged for a closer look

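For each of the 7 homeostatic genes the change from Sham was unlike at 24 h and 3 d, by the limma contrast of TIA 3d with TIA 24h, in which the shared Sham samples cancel. The change at TIA 3d minus that at TIA 24h was 3.12 for P2ry12, 2.96 for Cx3cr1, 2.86 for Gpr34, 3.31 for Tmem119, 2.54 for Fcrls, 2.94 for Slco2b1 and 2.01 for Olfml3 on the log2 scale, with the 3 TIA 3d samples above the 3 TIA 24h samples in each, as the groups of 48.3% of all genes did not overlap. Relative to 12 myeloid genes of the same sample the same difference was 0.52, 0.36, 0.26, 0.71, -0.06, 0.34 and -0.59 in that order, and none passed, beside 75.4% of all genes. The 3 deepest lanes were those of TIA 3d, so depth and time point cannot be told apart. None of the 7 genes passed against Sham at either time point. Between the time points none passed with any of TIA 24h replicates 2 and 3 and TIA 3d replicates 1 and 3 left out. With the lane total as a covariate all 7 differences changed sign.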

How the results depend on the processing

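At TIA 24h against Sham 0 of the 7 genes passed under every alternative run on the deposited scale, with lower means throughout. Across the 3 groups, where 0 passed, the F test gave 1 after median centring (52 of all 757 genes), 1 with an intensity trend and robust prior (50), 7 with array weights (295), 2 without Sham replicate 3 and TIA 24h replicate 3 (28), and 0 to 7 when a sample was left out (0 to 136). At TIA 3d against Sham (0) array weights gave 2 (174 of all) and leaving out a sample 0 to 3 (0 to 84). Between the time points (7, and 145 of all) 0 of the 7 passed after quantile normalization (7 of all), scaling to the 12 myeloid genes (571), the lane total as a covariate (0), an ordinary linear model (0) and voom (97), and leaving out a sample gave 0 to 7 (0 to 226). The voom fit, at the deposited scaling, was chosen after seeing the data, as was leaving out both shallow lanes. The voom fit planned first was not run, because its library sizes do not return the deposited scale.

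With the replicate number as a block, the F test gave 5 of 7 genes (54 of all), TIA 24h against Sham 0, TIA 3d against Sham 0 and TIA 3d against TIA 24h 7 (140 of all). Deviations of same-numbered samples correlated at -0.24 to 0.27, above 0.1 in 5 of 9 pairs. The labels give these samples a shared number and no pairing or batch. With so few samples per group the correlations cannot show whether a batch was shared.

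Directions reversed as follows. At TIA 3d against Sham, scaling to the 12 myeloid genes gave -0.79 (P2ry12), -0.79 (Cx3cr1), -1.11 (Gpr34), -0.40 (Tmem119), -0.70 (Fcrls), -0.24 (Slco2b1) and -1.35 (Olfml3). The lane total as a covariate gave -1.68, -1.44, -1.50, -1.13, -1.09, -0.80 and -1.15 in the same order. Quantile normalization gave -0.75 (Cx3cr1) and -0.37 (Olfml3) and lane-total scaling -0.15 (Olfml3). Leaving out a sample moved the difference over -0.14 to 2.26 (P2ry12), -0.19 to 1.78 (Gpr34) and -0.094 to 1.33 (Olfml3), the lowest without Sham replicate 3, which held also with both shallow lanes out. Between the time points the lane total as a covariate gave -0.81, -0.64, -0.37, -0.39, -0.71, -0.54 and -0.42 in the order above, and scaling to the 12 myeloid genes -0.061 (Fcrls) and -0.59 (Olfml3). The causes were not tested, and the covariate is nearly the same as the time point here.

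Scaled to the 12 myeloid genes, TIA 24h against Sham gave 0 to 1 genes when a sample was left out (0 to 268 of all). As a share of the 7 plus those 12 genes, the 7 held 43.8% for Sham, 30.0% for TIA 24h and 27.5% for TIA 3d, which differs from the lane share by construction. Ratios without overlap, of 21, became 2 with log2(value + 16) (9.15% of all pairs of genes) and 1 to 14 on leaving out a sample (14.9 to 32.3%) at TIA 24h against Sham, 9 by quantile (17.4%) and 5 to 10 (27.1 to 48.6%) at TIA 3d against Sham, and 10 (34.1%) and 4 to 9 (49.1 to 57.0%) between the time points. With both shallow lanes out they became 16 (41.1%), 10 (28.1%) and 8 (52.0%). Fewer samples separate more easily by construction. The share was not recomputed on normalized values, since a lane factor cancels in it. Among the differences of single genes 355 kept direction and side of the threshold, 70 lost a call, 5 gained one and 32 reversed.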
